A study of Drosophila melanogaster with 3 samples.

Results

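Small nucleolar RNA (snoRNA) genes and the genes that contain them were examined for binding of Dek, a conserved chromatin-associated protein, in whole embryos of Drosophila melanogaster. The members were the 269 genes of biotype snoRNA in the dm6 annotation, out of 18277 genes with transposable elements left out. Each was paired with the shortest gene of another biotype that contained it on the same strand, called its host. A host was found for 247 snoRNA genes (91.8%), which shared 92 hosts, and 22 had none. By their symbols, 117 snoRNA genes belonged to the box C/D class and 120 to the box H/ACA class, and 32 could not be classed. Names with the scaRNA prefix, used for the related RNAs of Cajal bodies, occurred 16 times.

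The chromatin immunoprecipitation used an antibody against GFP on a transgenic line that stably makes Dek fused at its C terminus to GFP. Embryos of both sexes were pooled, were aged 0 to 24 h and gave sonicated fragments of 200 to 800 bp. All 3 biological replicates formed 1 group, and no input, untagged line or second condition was analysed here. Whole embryos mix many cell types and stages, so a peak cannot be assigned to a tissue. The authors deposited 30000 peaks for each replicate and for the pooled data, and 4736 peaks that passed an irreproducible discovery rate (IDR) threshold, which are the strongest 4736 of the pooled list. The peak lists carry no read counts, and sample depth is therefore unknown. Peak signal is the authors' value, whose unit is not stated in the labels or headers. It was compared only within a list, and a peak's place in its list (1 is the strongest) was used across lists.

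As background, box C/D snoRNAs guide 2′-O-methylation and box H/ACA snoRNAs guide pseudouridylation, mostly of ribosomal RNA. In flies most lie in introns and are cut out of the spliced intron of the host transcript, so the host promoter drives their synthesis. Many hosts encode ribosomal proteins or translation factors, whereas the Uhg hosts make spliced RNAs with no known protein product. In these data 227 of the 247 hosted snoRNA genes overlapped no exon of their host and 17 lay wholly inside an exon of some transcript. The median distance from the first annotated start of the host to the snoRNA was 1788 bp (quartiles 979 and 3356 bp), and 23 snoRNAs began within 500 bp of it. Median lengths were 80 bp for box C/D, 140 bp for box H/ACA and 147 bp for unclassed genes. The hosts were 28 ribosomal protein genes holding 71 snoRNAs, 54 other protein-coding genes holding 121 and 10 non-coding genes holding 55.

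The results below turn on 2 kinds of sequence, the snoRNA gene and the host start. One gene of each snoRNA class is shown first, read from the RefSeq copy of Release 6 (dm6) 5′ to 3′. Capitals mark the C box TGATGA and the D box CTGA of the first and the ACA near the 3′ end of the second. Both lie in introns, 96 bp downstream of the start of Uhg2 and 1291 bp downstream of the start of Arpc2.
snoRNA:Me18S-A1576, chr2L:9894795-9894907, minus strand: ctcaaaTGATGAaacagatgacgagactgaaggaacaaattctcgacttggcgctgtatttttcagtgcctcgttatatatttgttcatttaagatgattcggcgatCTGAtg
snoRNA:Psi18S-525a, chr2L:20418348-20418481, plus strand: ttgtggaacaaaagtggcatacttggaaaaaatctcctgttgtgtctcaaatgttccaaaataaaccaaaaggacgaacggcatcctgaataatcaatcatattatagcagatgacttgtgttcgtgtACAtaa
The host starts below cover 80 bases before the annotated start used and 20 from it on, so the start is base 81. Each had an IDR summit within the window shown, and they were chosen because they hold letters that were counted over all promoters. Capitals mark CTTT, a short form of the pyrimidine run with which ribosomal protein transcripts commonly begin, or TATCGATA, the core of the element bound by the factor Dref.
RpL14 start, chr3L:8600926-8601025, plus strand: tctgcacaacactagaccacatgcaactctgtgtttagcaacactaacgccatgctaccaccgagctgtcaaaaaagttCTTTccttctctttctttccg
drn start, chr3R:9340574-9340673, plus strand: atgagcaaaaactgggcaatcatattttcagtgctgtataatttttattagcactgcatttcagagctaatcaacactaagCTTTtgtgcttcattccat
RpS12 start, chr3L:13023272-13023371, plus strand: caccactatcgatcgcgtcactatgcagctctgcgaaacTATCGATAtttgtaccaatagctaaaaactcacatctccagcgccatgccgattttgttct
RpL36A start, chr2L:8042890-8042989, minus strand: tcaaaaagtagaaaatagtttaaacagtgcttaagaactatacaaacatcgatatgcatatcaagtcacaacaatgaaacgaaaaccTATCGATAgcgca
RpS7 start, chr3R:30208929-30209028, minus strand: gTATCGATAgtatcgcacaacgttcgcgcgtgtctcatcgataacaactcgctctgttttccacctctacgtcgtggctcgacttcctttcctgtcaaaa

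CTTT on the transcribed strand, beginning within 2 bp of any annotated start, was found at 6 of 28 ribosomal protein hosts (21.4%) and 11 of all 92 hosts (12%), against 3.27% of all protein-coding genes. At the first annotated start alone it was 3 of 28 (10.7%) and 6 of 92 (6.52%), against 2.2%, so the share depends on how many starts are annotated. When CTTT could begin up to 10 bp away, a tolerance added after the data were seen, the counts were 23 of 28 (82.1%) and 42 of 92 (45.7%), against 14.9%. At the first start alone these were 14 of 28 (50%) and 27 of 92 (29.3%), against 10.8%. Ribosomal protein genes that are not hosts stood beside the hosts, with 81.5% at the wider tolerance. The palindrome TATCGATA, which reads alike on both strands, lay in the 250 bp before or 50 bp after a start at 22 hosts (23.9%) and at 10.2% of protein-coding genes. Among hosts it was found at 10 of the 52 that had an IDR summit (19.2%) and at 12 of the 40 that had none (30.0%). Over all protein-coding genes with an IDR summit the share was 15.4%. At the first annotated start alone, TATCGATA was found at 18 of 92 hosts (19.6%), against 9.36% of protein-coding genes. It was then at 10 of 52 hosts with an IDR summit (19.2%) and 8 of 40 without (20%), so these shares were close. Over protein-coding genes with an IDR summit it was 14.1%. These are matches of letters and were not tested as binding sites.

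Dek-GFP peaks lay at the starts of the hosts and seldom at the snoRNA genes. An IDR summit lay within 500 bp of an annotated start of 52 of 92 hosts (56.5%), against 22.8% of protein-coding genes and 19% of all genes, and inside 0 of 269 snoRNA genes. Among other genes no longer than the longest snoRNA (316 bp) an IDR summit lay inside 6 of 1511 (0.397%), of which 962 are ncRNA genes with a median length of 30 bp. At the mean density along the arms, the 32.2 kb of snoRNA sequence would hold 1.14 IDR summits, so a target this short would hold few summits at any site. Because snoRNAs share hosts, 174 of the 247 hosted snoRNA genes (70.4%) had a host with an IDR summit at a start. By class this held for 75 of 107 box C/D genes (70.1%), 82 of 111 box H/ACA genes (73.9%) and 17 of 29 unclassed genes (58.6%).

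Weaker peaks were found inside a small number of snoRNA genes. The pooled list of 30000 peaks placed a summit inside 2 snoRNA genes (0.743%), against 59 of 1511 other short genes (3.9%). At the mean density the snoRNA sequence would hold 7.21 pooled summits. The replicate lists placed summits inside 5, 4 and 11 snoRNA genes in replicates 1, 2 and 3. The same 7.21 would fall in the snoRNA sequence in each, so replicate 3 lay above that number and the others below it. In all 17 snoRNA genes held a summit in some replicate, and 3 did so in at least 2 replicates. One of those was snoRNA:Dek-a, in the gene of Dek itself, with place 7972 in the pooled list, 9788 in replicate 2 and 6242 in replicate 3. It was joined by snoRNA:CG32479-a in Usp10, a ubiquitin protease gene (pooled place 23946), and by the hostless snoRNA:Or-ACA7. Among the 4736 strongest peaks of each replicate, the number of snoRNA genes hit was 0 in replicates 1 and 2 and 1 in replicate 3. The median distance from a snoRNA gene to the nearest IDR summit was 2254 bp and to the nearest pooled summit 1121 bp. Median GC content was 39.1% in snoRNA genes and 33.8% within 100 bp of all IDR summits.

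Among the strongest peaks, the number of host starts with a summit was close in the 3 replicates, and over the full lists replicate 1 was lower. Among the 4736 strongest peaks of replicates 1, 2 and 3, a summit lay at 52, 50 and 52 of the 92 hosts, a mean of 55.8% ± 1.26 (SD, n = 3). The matching shares of protein-coding genes were 21.8%, 23.9% and 20.8%, a mean of 22.2% ± 1.58, so the gap exceeded the spread between replicates in every one. The full replicate lists gave 64, 77 and 78 hosts (69.6%, 83.7% and 84.8%), a mean of 79.3% ± 8.49, against 49% ± 4.10 of protein-coding genes. The pooled list placed a summit at 74 hosts (80.4%), against 48.8% of protein-coding genes and 44% of all genes. A strong peak was present in all 3 replicates at 38 hosts, in exactly 2 at 13, in exactly 1 at 14 and in none at 27. The same split was not counted over all genes, so whether it is particular to hosts cannot be told. Of the 52 hosts with an IDR summit, 37 had a strong peak in every replicate. The pooled and IDR lists draw on all replicates, so this count is partly built in.

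**Figure D1:**
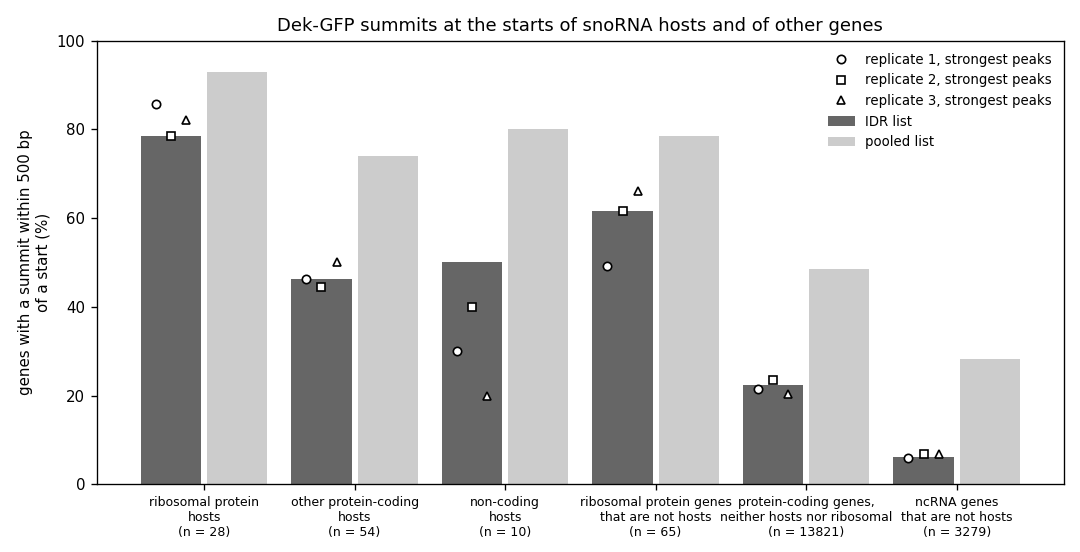
Share of genes with a summit within 500 bp of an annotated start (y axis, percent) in 3 groups of hosts and 3 groups of other genes. Dark bars are the IDR list, light bars the pooled list, and open symbols the 4736 strongest peaks of each replicate. Ribosomal protein hosts are highest with 22 of 28 (78.6%) in the IDR list, against 61.5% of ribosomal protein genes that are not hosts.

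Ribosomal protein hosts had Dek-GFP at their starts more often than the other hosts did. An IDR summit was found at 22 of 28 ribosomal protein hosts (78.6%), 25 of 54 other protein-coding hosts (46.3%) and 5 of 10 non-coding hosts. Over the strongest peaks of the replicates, the ribosomal protein hosts averaged 82.1% ± 3.57 (SD, n = 3), and the 65 ribosomal protein genes that are not hosts averaged 59.0% ± 8.75. Replicates 1, 2 and 3 gave 85.7%, 78.6% and 82.1% for the hosts and 49.2%, 61.5% and 66.2% for the other ribosomal protein genes, so the hosts stood higher in each. Other protein-coding hosts averaged 46.9% ± 2.83, against 21.8% ± 1.61 of protein-coding genes that are neither hosts nor ribosomal. Non-coding hosts averaged 30.0% ± 10. An IDR summit was found at 6.38% of the 3289 genes of biotype ncRNA, and at 6.25% of those that are not hosts. The share among protein-coding hosts stood above that of other protein-coding genes at each number of annotated starts. With 1 start it was 20 of 38 (52.6%) against 17.6%, with 2 starts 13 of 23 (56.5%) against 32.4%, and with 3 or more 14 of 21 (66.7%) against 46.0%. With another gene's start within 1000 bp it was 36 of 60 (60%) against 33.3%, and with none 11 of 22 (50%) against 12.8%. Ribosomal protein hosts made up 6 of those 11, and 5 of the 13 other isolated hosts (38.5%) had a summit. Expression was not measured here, and its part in these shares was not tested.

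Hosts of several snoRNAs had an IDR summit more often than hosts of 1. The count was 24 of 55 hosts of a single snoRNA (43.6%), 13 of 17 hosts of 2 or 3 (76.5%) and 15 of 20 hosts of 4 or more (75%). The last group held 153 snoRNA genes. Its most crowded members are the Arpc2 gene with 17 snoRNAs, Uhg1 with 16, dom with 15, RpS5a with 14, Uhg5 with 11 and kra with 8, followed by Hrb98DE, RpS7, Nop60B and Uhg4 with 7 each. All but dom had an IDR summit at a start. Over all genes the share with an IDR summit at a start was 19%, and over protein-coding genes it was 22.8%. The groups by number of snoRNAs were not split by kind of host, so the part of the ribosomal protein hosts in these shares was not tested.

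**Figure D2:**
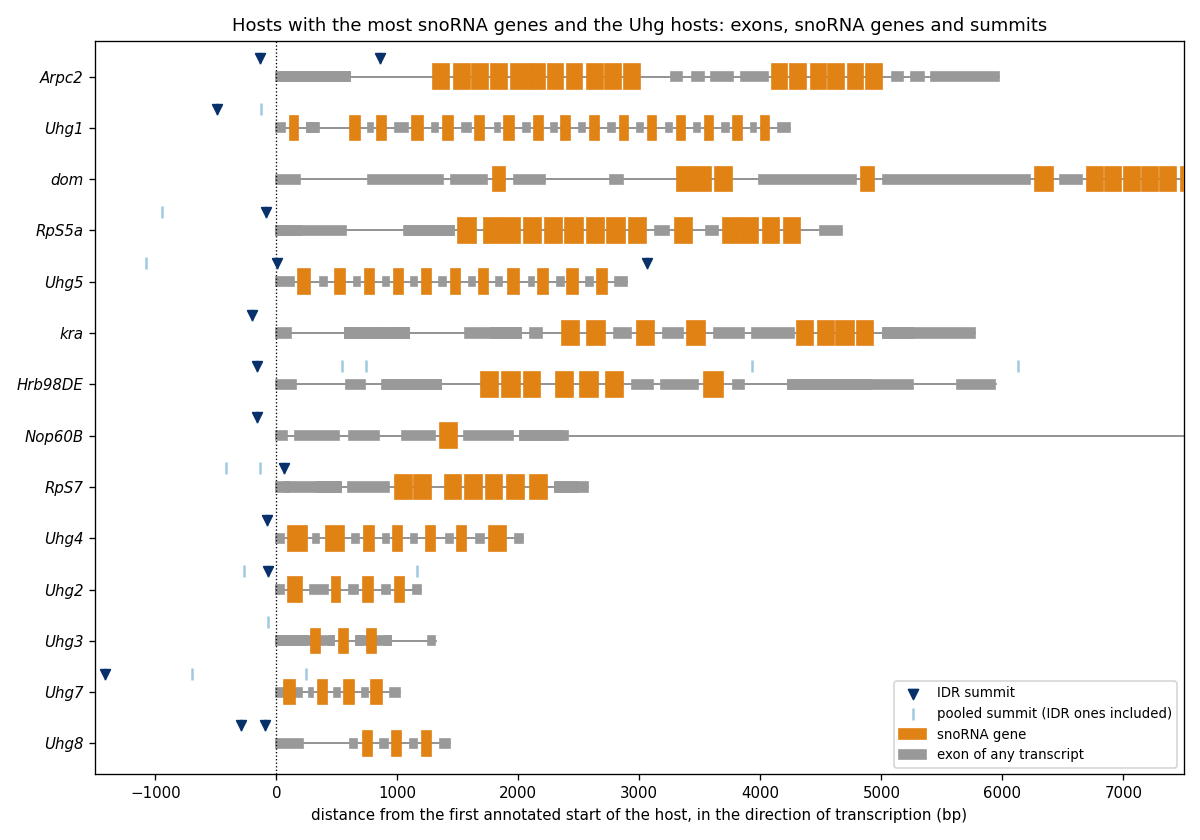
Maps of the 10 hosts with the most snoRNA genes and of the other Uhg hosts, by distance from the first annotated start in the direction of transcription (x axis, bp, cut at 7500 bp). Orange blocks are snoRNA genes, grey blocks exons, dark triangles IDR summits and light ticks pooled summits, the IDR ones included. IDR summits cluster around the start, upstream of the snoRNA genes, and an IDR summit also lies past the end of Uhg5. The map of dom shows no summit.

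Apart from Uhg4, these crowded hosts had an authors' signal between 190 and 368 where a peak was called. The Arpc2 start, of a gene for a subunit of the actin-nucleating Arp2/3 complex, had a signal of 368 with its summit 136 bp upstream. Places were 973, 2904 and 1767 in replicates 1, 2 and 3, so all 3 ranked it among their strongest peaks. That summit lay 3 bp from the start of CG10949 on the other side, and which gene it belongs to cannot be told apart by distance. All 17 of the Arpc2 snoRNAs are of the box H/ACA class. RpS5a, which encodes a protein of the small ribosomal subunit and also holds only H/ACA snoRNAs, had a signal of 272 and places 1265, 2757 and 4014. The signal at kra, a gene for a regulator of translation, was 212, and its summit lay 97 bp from the start of SecS. Within 200 bp of that summit, replicates 2 and 3 had places 8485 and 2681 and replicate 1 listed no peak. Hrb98DE, which encodes an RNA-binding hnRNP protein, had a signal of 231. Within 200 bp of its summit the places were 1206, 13894 and 3998, and replicates 2 and 3 had a stronger peak elsewhere near a start (4251 and 3189). RpS7 had a signal of 190, near the lowest IDR signal of 164, with places 2964, 4820 and 3733. Nop60B, where 6 of the 7 snoRNAs lie in exons of some transcript, had a signal of 192 and places 1778, 5156 and 17649, so replicate 3 stood far below the others. The dom gene encodes the ATPase of a chromatin-remodelling complex, and none of the 5 lists held a summit within 500 bp of any of its starts.

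The Uhg genes carry snoRNAs as their best known product. Of the 7, the 5 genes Uhg4, Uhg8, Uhg5, Uhg2 and Uhg1 had an IDR summit at the start. Uhg4 was the strongest, with a signal of 914, a summit 80 bp upstream and places 391, 318 and 173 in replicates 1, 2 and 3, and no other gene started within 500 bp of that summit. The remaining Uhg peaks were weaker. Uhg8 had a signal of 309 and places 799, 2424 and 8920, with CG5199 starting 138 bp from the summit. Uhg5 had a signal of 277, a summit 4 bp downstream and places 7275, 1588 and 1997, with CG12863 starting 285 bp from the summit. Uhg2 had a signal of 235 and places 1301 and 5944 in replicates 2 and 3, and replicate 1 did not list it. Bka started 217 bp from the Uhg2 summit. The Uhg1 summit, with a signal of 213, lay 493 bp upstream and closer to the start of rdgBbeta (242 bp). Within 200 bp of that summit the places were 1910, 2165 and 3627, but the strongest peak within 500 bp of the start was at 8583 in replicate 2 and was missing in replicate 3. Uhg3 reached place 7463 in the pooled list, with 8483 and 5333 in replicates 2 and 3, and Uhg7 reached place 29007, with a peak in replicate 2 alone. The Uhg values thus range from place 173 in a replicate to the end of the pooled list.

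Apart from Uhg4, the 12 hosts with the strongest IDR peaks held 1 to 3 snoRNAs each. CG1142, the host of scaRNA:MeU5-C46, had the highest signal among the hosts, 1655, with its summit 175 bp upstream and places 73, 61 and 76 in replicates 1, 2 and 3. No other gene started within 500 bp of this summit. Stt3A, which encodes the catalytic subunit of oligosaccharyltransferase, had a signal of 1323 and places 284, 107 and 81, but its summit lay 395 bp upstream and only 214 bp from the start of bves. Msp300, a gene for a large protein that links nuclei to the cytoskeleton, had a signal of 1274 and places 61, 159 and 242. Its single snoRNA lay 101506 bp downstream of its first annotated start, which is not the start used for this peak. That of Dys, the dystrophin gene, lay 125111 bp downstream of a start with a signal of 552 and places 643, 944 and 733. The gene drn held 2 snoRNAs and had a signal of 733, a summit 30 bp upstream and places 253, 386 and 1642.

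Next in order came Irbp, which encodes the Ku70 DNA-end-binding protein, with a signal of 693 and places 514, 445 and 525. Its summit lay 89 bp upstream and 83 bp from the start of mgr. SC35, an SR splicing factor gene, had a signal of 546 and places 521, 509 and 2341, and its summit was closer to the start of eRF3 (134 bp) than to its own (280 bp). The strongest ribosomal protein hosts were RpL14, RpL11, RpL30 and RpS20. RpL14 had a signal of 634, a summit 29 bp upstream and places 1425, 353 and 446, with Nelf-E starting 98 bp from the summit. RpL11 had a signal of 614, a summit 33 bp upstream and places 1434, 639 and 266. RpL30 had a signal of 597, a summit 19 bp downstream and places 1836, 616 and 351. All 3 thus stood lowest in replicate 1. RpS20 had a signal of 532 and places 788, 720 and 1199, with CG17271 starting 199 bp from its summit. Places for CG1142 and Irbp differed by less than 100 between replicates, while drn, SC35 and the ribosomal protein hosts moved by more than that.

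**Figure D3:**
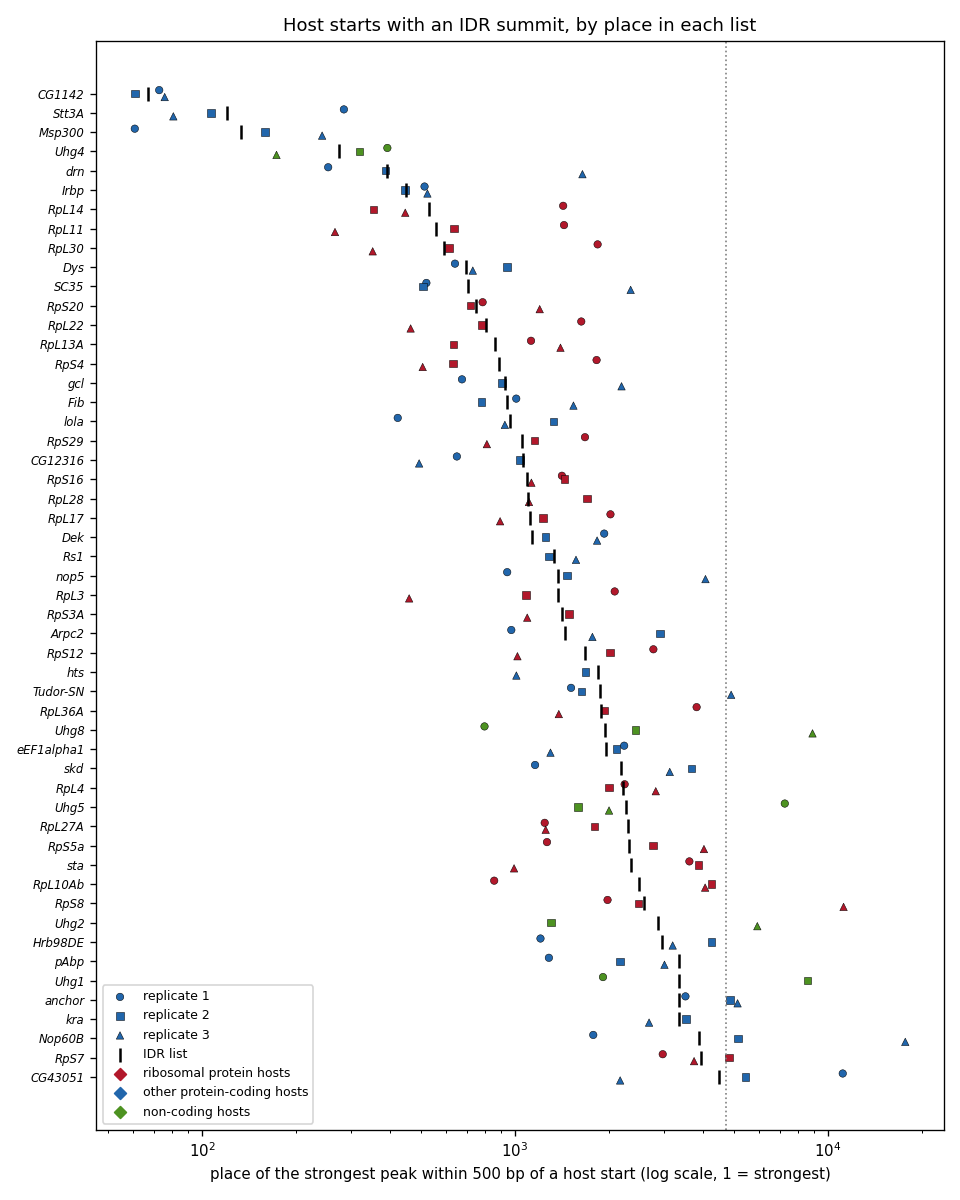
Place of the strongest peak within 500 bp of a start (x axis, log scale, 1 is strongest) for the 52 hosts with an IDR summit (rows, by IDR place). Circles, squares and triangles are replicates 1, 2 and 3, coloured by kind of host, the black bar is the IDR list and the dotted line marks place 4736. A missing symbol means that the replicate listed no peak within 500 bp of a start. The strongest hosts stand high in every replicate, and the replicates spread widely among the weaker ones.

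Among the 52 hosts the authors' signal ran from 171 to 1655 with a median of 378, against a median of 304 for protein-coding genes with an IDR summit. The median was 402 for ribosomal protein hosts, 385 for other protein-coding hosts and 277 for non-coding hosts. It was 312 for ribosomal protein genes that are not hosts. The weakest of the IDR hosts was CG43051 with a signal of 171, just inside the list whose lowest signal was 164.

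Most Dek-GFP summits lay upstream of the host start, and their distance differed between the kinds of host. Of the 52 hosts, 43 had the summit upstream of the start used (82.7%), against 88.9% of protein-coding genes with an IDR summit. The median was -84 bp, and in 52 of 52 every snoRNA lay downstream of that start. Ribosomal protein hosts had a median of -46 bp and 18 of 22 within 100 bp of the start. Their non-host relatives had a median of -38 bp, and 85.0% lay within 100 bp. Other protein-coding hosts had a median of -164 bp and 7 of 25 within 100 bp, against -138 bp and 30.1% for all protein-coding genes with an IDR summit. Median GC content around the summit (100 bp on each side) was 42.3% at ribosomal protein hosts and 30.8% at other protein-coding hosts, against 33.3% for all protein-coding genes. The first snoRNA lay a median of 1028 bp downstream of the first annotated start of the host, from 96 to 125111 bp.

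**Figure D4:**
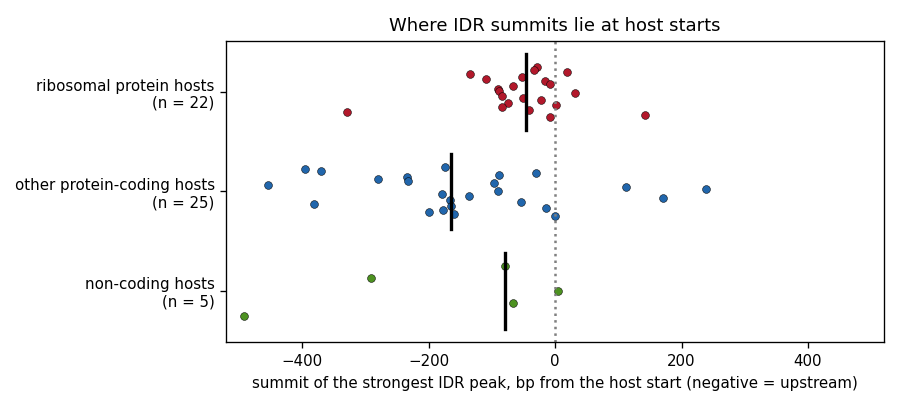
Distance of the strongest IDR summit from the nearest start of the host (x axis, bp, negative is upstream), 1 point per host, for the 3 kinds of host. Black bars are medians, at -46 bp for ribosomal protein hosts, -164 bp for other protein-coding hosts and -80 bp for non-coding hosts.

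A summit near a host is not always a summit of that host. Another gene, snoRNA genes not counted, started within 500 bp of the summit at 29 of the 52 hosts, on the opposite strand in 28, and at 13 hosts it started closer than the host did. RpL10Ab is one of these, with a summit 330 bp upstream and 246 bp from the start of CG5946. The 23 summits with no other start nearby include those of CG1142, Msp300, Uhg4, drn, RpL11, RpL30, Dys, RpS4, RpS29 and RpS5a. These counts were not made over all genes. By the wider rule of another start within 1000 bp of a gene's start, 36 protein-coding hosts with an IDR summit had such a neighbour and 11 had none. Among protein-coding genes that are not hosts, 2212 with an IDR summit had one and 926 had none, so neighbours were common in both.

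The order of the replicates differed between ribosomal protein hosts and the other protein-coding hosts. The median place of the ribosomal protein hosts was 1829, 1463 and 1101 in replicates 1, 2 and 3, whereas that of the other protein-coding hosts was 1009, 1328 and 1767. All protein-coding genes with an IDR summit had medians of 1968, 2043 and 2532. Replicate 3 placed the peak before replicate 1 at 14 of 22 ribosomal protein hosts (63.6%) and 8 of 25 other protein-coding hosts (32.0%), against 42.1% of all protein-coding genes, with a peak that a replicate did not list taken as last. Ribosomal protein genes that are not hosts gave 65.0%. GC content at the summits moved with this split, as given above, and its part was not tested. The depth of the replicates is unknown, and its part was not tested either.

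**Figure D5:**
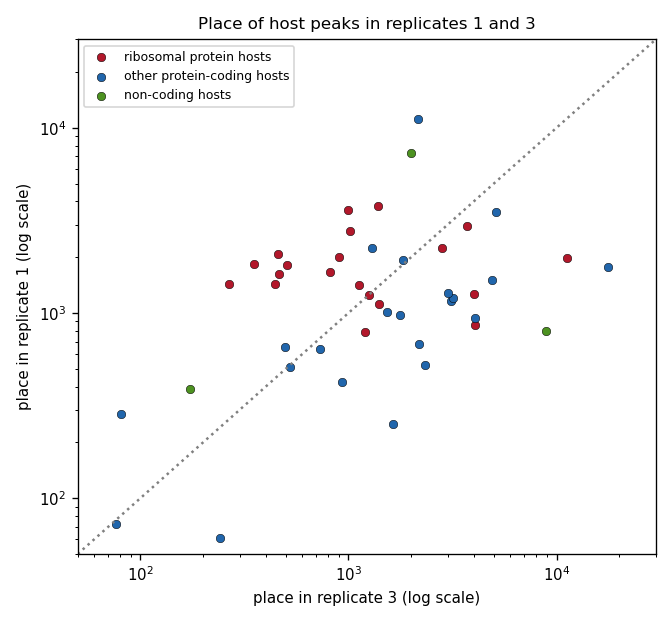
Place of the host peak in replicate 1 (y axis, log scale) against replicate 3 (x axis, log scale) for the IDR hosts listed in both, with 20 ribosomal protein, 22 other protein-coding and 3 non-coding hosts. Points above the dotted line of equal places stand higher in replicate 3. Most ribosomal protein hosts lie above the line, and most other protein-coding hosts lie below it.

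No IDR summit was found at 40 hosts. Of these, 22 had a pooled summit, 15 had a summit in each full replicate list and 13 had one among the strongest peaks of some replicate. Matching counts over other genes outside the IDR list were not made. Several ribosomal protein hosts fell short of the IDR list. RpL7A reached pooled place 5955, with 3690, 4545 and 3742 in replicates 1, 2 and 3, so every replicate ranked it among its strongest peaks. RpS6 reached 5971 and RpS9 reached 5495. RpL5 was listed by replicate 1 alone, at place 3073. The 9 hosts with no summit in any list were dom, CG10576, RpL15, Ddx56, Gp210, Pi4KIIalpha, dmt, lds and lncRNA:CR31647. RpL15 was the sole ribosomal protein host among them. The nearest pooled summit lay 4326339 bp from its snoRNA:Me18S-G1358c, so the lack of pooled peaks reached far beyond this gene. For the snoRNA of RpL5 that distance was 740493 bp. These hosts outside the IDR list were named after their values were seen.

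Dek itself is a host, with snoRNA:Dek-a inside it. The strongest IDR peak near a Dek start had a signal of 425, a summit 239 bp downstream of the start used and places 1927, 1249 and 1829 in replicates 1, 2 and 3. Around that summit, 60.2% of bases within 100 bp were G or C, the highest value among the 52 hosts. The line carries an insertion of tagged Dek, and its part in this peak was not tested. It was singled out because the study targets this protein.

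The 22 hostless snoRNA genes were examined at their own starts. Of these, 10 lie inside or overlap a gene on the opposite strand, none overlaps a gene of another biotype on its own strand, and 12 are on arm 2R. An IDR summit lay within 500 bp of the own start of 5 of the 22 (22.7%), a share close to the 19% of all genes. Over all 269 snoRNA genes it was 7.06%. The pooled list gave 14 of 22, against 44% of all genes. The strongest peaks gave 1, 8 and 10 in replicates 1, 2 and 3 (4.55%, 36.4% and 45.5%), against 18%, 20% and 17.8% of all genes. Replicate 1 thus lay below the share of all genes and the other 2 above it. These are counts of genes and not of separate peaks, because neighbouring genes can share a peak. The same peak on arm 2R was counted for each of several adjacent hostless genes, snoRNA:Psi28S-1153 among them. Its place was 4069 in replicate 2, 2806 in replicate 3 and 5517 in the pooled list. The shares in replicates 2 and 3 rest partly on such sharing. The full lists gave 8, 14 and 17 (36.4%, 63.6% and 77.3%), against 40.3%, 46.7% and 45.2% of all genes.

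Among the 5, snoRNA:Or-ACA6 had the highest signal, 516, with a summit 469 bp upstream. Within 200 bp of that summit the strongest peaks were at places 1006, 621 and 972 in replicates 1, 2 and 3. Those of replicates 2 and 3 lay just past 500 bp from the start of this snoRNA and so were not counted for it. They were counted above for the neighbouring hostless snoRNA:Or-CD13, which had places 621 and 972 in those replicates. The gene lies antisense to egr, which encodes the fly tumour necrosis factor. For snoRNA:185 the signal was 356, the summit lay 46 bp upstream and the places were 8642, 776 and 1429, with tRNA:Glu-TTC-1-5 starting 333 bp from the summit. For snoRNA:Psi18S-176 the signal was 241, the summit again lay 46 bp upstream and the places were 12697, 3880 and 831. The signal was 186 at snoRNA:Psi18S-301, whose summit lay 65 bp upstream, with places 4461 and 1801 in replicates 2 and 3 and no peak in replicate 1. For snoRNA:Or-aca4 the signal was 164, the summit lay 160 bp upstream and the places were 7843, 5213 and 3327. All but snoRNA:Or-ACA6 thus had the summit within 160 bp upstream of the snoRNA, and the nearest start of a gene other than a snoRNA was at least 333 bp from the summit.

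Of the hosted snoRNA genes, 14 had an IDR summit within 500 bp of their own start, and in 11 this was the summit counted for the host start. Examples are snoRNA:Me18S-A1576, shown above, with the Uhg2 summit 163 bp upstream, and snoRNA:U49:66Da with the RpL14 summit 496 bp upstream. The others include snoRNA:Psi18S-525a in Arpc2, shown above, and snoRNA:Or-CD4 in Uhg5. The summit near snoRNA:Psi18S-525a lay 436 bp upstream in an intron of Arpc2, with a signal of 217 and places 3716, 5348 and 3504. The summit near snoRNA:Or-CD4 lay 411 bp downstream, past the end of Uhg5, with a signal of 277 and places 4126, 2318 and 1610.

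The proteins that build snoRNA particles are encoded by a list of 16 genes, all of which were found. An IDR summit lay within 500 bp of a start of 11 of the 16, against 22.8% of protein-coding genes, and a pooled summit at 15. The list holds 3 hosts, and all 3 had an IDR summit, as did 8 of the 13 others. Core proteins of the box C/D particle include Fib, the methyltransferase, with a signal of 468, nop5 with 378 and hoip with 297. The Fib summit lay 1 bp from the start of CG3085 and that of hoip 11 bp from the start of Pka-C1. Nop56, a further core gene, had no IDR summit and stood at pooled place 5229. Among the box H/ACA core genes NHP2 had a signal of 623 with no other start nearby and Nop60B, the pseudouridine synthase and host of 7 snoRNAs, had 192. Nop10 and Gar1 had no IDR summit.

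Of the assembly and trafficking genes, pont, which encodes an AAA ATPase, had the highest signal of the list, 1093, and its partner rept had 180. Nopp140, a nucleolar protein gene, had 254. Nufip, Nop17l and spag, the fly counterparts of assembly factors known from yeast and human cells, had 183, 172 and 206. All replicates ranked pont, Nopp140 and spag among their 4736 strongest peaks. The others were uneven, with signals near the lowest IDR signal of 164. Places in replicates 1, 2 and 3 were 7431, 2402 and 10868 for rept and 10825, 3305 and 2785 for Nop17l. Within 500 bp of its start, Nufip had a peak in replicate 2 alone, at place 4210. WDR79 and coil, which act in Cajal bodies, had no IDR summit, and coil had no pooled summit either. Each of the IDR summits in this second set lay within 500 bp of another gene's start, as at pont, where Sirt6 started 146 bp from the summit.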

How the data were processed

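Dek-GFP ChIP-seq of 3 biological replicates was analysed from the deposited peak lists on dm6. Per the deposited description files, the authors derived each replicate list from its alignments, a pooled list from all replicates and an IDR list from these. Each peak's signal is the authors' deposited value, and no label or header states its unit. The authors' −log10 q of the weakest listed peak was 0.186 to 0.407 over the replicate lists, 0.334 for the pooled peaks and 3.25 for the IDR peaks, so all but the last end in peaks that are not significant. Caller, aligner and IDR threshold: not given in the sources used here.

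Gene models came from Ensembl release 115 and sequence from RefSeq Release 6, both of dm6. The peak position was the deposited summit. A gene was counted when a summit lay within 500 bp of any annotated start, and the strongest such peak was used. For hosts and hostless snoRNAs, replicate peaks within 200 bp of an IDR summit were looked up after the data were seen. They are given where they differ from the places of a gene whose places are printed. For other genes this was not done, and places are those of the strongest peak within 500 bp of a start. The strongest 4736 peaks per replicate match the length of the IDR list. The members, gene lists, letters and comparisons were chosen with earlier results of these data known, so counts are given beside those of all genes with no test. SDs are over the 3 replicates. Genes named were the 12 hosts with the strongest IDR peak, the 10 with the most snoRNAs, the Uhg hosts, the 5 hostless snoRNAs with the strongest IDR peak and the snoRNA particle genes. Other named genes were chosen after their values were seen. Values of 1 host are not reported here. Counting code was tested on simulated peaks. Alternatives changed the window, the peaks, the starts, the choice of host and the replicates. Python 3.11.15, numpy 2.4.6, pandas 2.3.3 and matplotlib 3.10.9 were used.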

Additional observations from a re-analysis of the deposited data

How the results depend on the processing

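The share of hosts with an IDR summit (56.5%) was 48.9% with a 200 bp window, 58.7% with 1000 bp, 44.6% with the stronger 50% of the IDR peaks, 51.1% at the 5′-most start and 47.8% to 54.3% when 1 replicate was left out. The protein-coding share was 16.2%, 26%, 13.2%, 20.8% and 19.7% to 21.2% under the same settings, so hosts stood higher in each. The share of hosted snoRNAs with such a host (70.4%) was 59.1% at 200 bp, 47.4% with the stronger 50%, 66.4% at the 5′-most start, 72.5% with every containing gene and 59.1% to 65.6% without 1 replicate. The replicate mean (55.8%) was 37.7% with the strongest 2000 peaks, 70.3% with 10000, 79.3% with full lists, 43.8% at 200 bp and 58.3% at 1000 bp. The median signal (378) was 338, 409, 433, 371 and 378 at 200 bp, at 1000 bp, with the stronger 50%, at the 5′-most start and with every containing gene, and 378 to 426 without 1 replicate. Of the snoRNA genes, 3 had an IDR summit within 100 bp and 8 were overlapped by an IDR peak interval, against 0 with a summit inside. Leaving out a replicate kept only IDR peaks whose summit lay in a peak of both other replicates. No paired analysis was possible because all samples form 1 group. Depth is unknown, so a missing peak cannot be told apart from one below detection.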

Other observations

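Inside the hosts, 25 IDR summits lay more than 500 bp from every annotated start of their gene, in 12 hosts. The same count was not made over other genes, so whether it is particular to hosts cannot be told. Of the 25, tou held 6 and kis held 4. The summits with the highest signal were in long genes. Msp300 had one with a signal of 1260 at place 138, 629 bp from its nearest start and 56626 bp from its snoRNA. Dys, the dystrophin gene, had one with a signal of 966 at place 252, which lay 4544 bp from its nearest start. The hts gene, which encodes adducin, had one with a signal of 814 at place 329, and tou had one with 780 at place 346. The gene drn had 3 such summits, the strongest with a signal of 646 at place 506, and 792 bp from its nearest snoRNA. At Arpc2 the nearest snoRNA was 436 bp away. These genes were chosen by the signal of the summits after it was seen.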
